A study of Homo sapiens with 12 samples.

Results

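The nuclear factor I (NFI) family has 4 members in the human genome, NFIA, NFIB, NFIC and NFIX, and this account describes the histone marks over these 4 genes in 4 related colorectal cancer cell lines. The members were every deposited region of H3K4me3, H3K27me3 or H3K79me3 that overlapped one of the genes extended by 2 kb on each side, on build hg19. This gave 136 of 244278 regions, made up of 33 of 36400 for H3K4me3, 12 of 50000 for H3K27me3 and 91 of 157878 for H3K79me3. The family was taken up because H3K79me3 over NFIB was low in these same libraries. Its H3K79me3 values therefore chose NFIB and are given as a description, with no test.

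The 12 libraries were ChIP-seq of the 3 marks, with 1 library per line and mark and no replicates. DLD1 is the parental line and is labelled epithelial. SA, obtained from colonies in soft agar, and SPH, obtained from colonospheres, are labelled mesenchymal, and METS, obtained from a lung metastasis of a xenograft, is labelled epithelial. The labels give no genetic change or treatment for any line, all of which were kept in the same serum-containing medium, and they name no batch. Each derivative is a line that stands for its own origin, so derivation, selection and culture cannot be told apart. The epithelial or mesenchymal character was not checked against marker genes, because no gene annotation of hg19 was used here, and whether a region is exonic or intronic is not given for the same reason.

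NFI proteins bind DNA as dimers through a conserved domain at the amino end and recognise the palindrome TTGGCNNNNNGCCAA. They act as activators or repressors in differentiation programmes: NFIA and NFIB are known for glial and lung development, NFIC for tooth root formation and NFIX for muscle and neural progenitors. NFIB is also known as an amplified driver of metastasis in small cell lung cancer. Of the marks, H3K4me3 lies at active promoters, H3K27me3 is deposited by Polycomb over silenced or poised chromatin, and H3K79 methylation is laid down by DOT1L behind the start of transcribed genes.

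RefSeq lists 19 promoters for the 4 members on build GRCh38.p14, of which 10 belong to NFIB, and all 4 members were found by symbol. These positions are on another build than the regions below, were not converted and were not matched to them. The 250 bases before the start held 3 to 40 CpG dinucleotides in NFIB, 8 to 38 in NFIA, 41 in NFIC and 4 to 37 in NFIX, against a median of 11 over 35116 promoters. The core motif TTGGC, searched on both strands as TTGGC and GCCAA, was present in 9 of 19 member promoters and in 40.8% of all promoters. The whole palindrome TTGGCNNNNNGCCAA, which reads the same on both strands and contains the core motif, was present in 0 of 19 and in 0.0285% of all promoters. A motif match is a description of the letters alone. The 4 sequences printed here are the promoters farthest upstream in NFIB, NFIA and NFIC and the next promoter of NFIB, and they show how far the starts of this family differ in CpG content. CpG dinucleotides are in capitals, and each sequence reads 5′ to 3′ along its gene.
NFIB promoter 1, chr9:14532078-14532327, minus strand, 3 CpG and 42.0% G or C: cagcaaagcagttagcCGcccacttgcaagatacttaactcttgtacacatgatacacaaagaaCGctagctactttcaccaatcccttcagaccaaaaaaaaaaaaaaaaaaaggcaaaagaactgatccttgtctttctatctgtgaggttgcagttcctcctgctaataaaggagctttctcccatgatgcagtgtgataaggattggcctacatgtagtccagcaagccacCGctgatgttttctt
NFIB promoter 2, chr9:14322388-14322637, minus strand, 36 CpG and 78.4% G or C: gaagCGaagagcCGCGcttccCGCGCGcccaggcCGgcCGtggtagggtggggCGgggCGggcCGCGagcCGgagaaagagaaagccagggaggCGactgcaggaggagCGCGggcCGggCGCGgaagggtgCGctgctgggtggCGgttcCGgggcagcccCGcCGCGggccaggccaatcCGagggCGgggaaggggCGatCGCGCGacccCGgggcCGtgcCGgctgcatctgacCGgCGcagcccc
NFIA promoter 1, chr1:61076977-61077226, plus strand, 17 CpG and 62.0% G or C: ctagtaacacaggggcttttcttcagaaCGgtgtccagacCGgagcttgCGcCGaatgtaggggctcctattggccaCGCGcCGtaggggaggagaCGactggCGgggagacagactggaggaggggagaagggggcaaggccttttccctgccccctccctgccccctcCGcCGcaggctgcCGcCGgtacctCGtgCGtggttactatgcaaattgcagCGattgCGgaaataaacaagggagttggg
NFIC promoter 1, chr19:3359380-3359629, plus strand, 41 CpG and 87.2% G or C: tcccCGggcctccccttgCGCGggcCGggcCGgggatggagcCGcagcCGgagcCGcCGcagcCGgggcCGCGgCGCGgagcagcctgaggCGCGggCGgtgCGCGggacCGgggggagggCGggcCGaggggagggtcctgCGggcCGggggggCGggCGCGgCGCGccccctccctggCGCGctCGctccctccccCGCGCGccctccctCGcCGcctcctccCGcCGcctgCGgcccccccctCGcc

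Values are raw read counts scaled to a library total of 1000000 (CPM). Library totals lay between 6722508 and 7753937 counts for H3K4me3, between 15605814 and 20410151 for H3K27me3 and between 6165169 and 7521451 for H3K79me3. A count of 1 was thus worth 0.133 to 0.162 CPM for H3K79me3. The tenth of H3K79me3 regions with the most counts took 39.5% of all counts in METS and 45.2% in SPH. Folds are ratios of CPM of a derivative to DLD1, and the ranges in parentheses are exact 95% Clopper-Pearson intervals. Copies made by PCR are not marked in the files, and these intervals and the floors hold for counting error alone. The 3 comparisons share the DLD1 library.

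NFIB lies on chromosome 9 from 14081842 to 14398982 (hg19, minus strand, 317 kb), and H3K79me3 over it was lower in every derivative than in DLD1. The sum over its 22 H3K79me3 regions was 139.6 CPM in DLD1, 79.2 CPM in SA, 16.4 CPM in SPH and 44.8 CPM in METS. SPH kept 11.7% of the DLD1 level, METS 32.1% and SA 56.7%. The sum was thus 8.52-fold lower in SPH (6.94 to 10.56), 3.12-fold lower in METS (2.73 to 3.57) and 1.76-fold lower in SA (1.59 to 1.96). Between neighbours in this order, DLD1 exceeded SA 1.76-fold, SA exceeded METS 1.77-fold (1.53 to 2.05) and METS exceeded SPH 2.73-fold (2.17 to 3.46). The ranges cover counting error alone. Because these H3K79me3 values chose the gene, the 3 gaps are given as a description and not as a test.

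The low H3K79me3 ran through the whole of the marked stretch. SPH was below DLD1 at 22 of 22 regions, SA at 22 of 22 and METS at 20 of 22, where 57.6%, 50.9% and 43.1% of all regions were. At least 2-fold lower, on the log2 scale with 0.5 CPM added, were 20 regions in SPH, 15 in METS and 6 in SA, and none was 2-fold higher. Over all 157878 regions the share at least 2-fold lower was 5.11% in SPH, 2.06% in METS and 2.30% in SA. Because this contrast chose the gene, nothing is read from the difference. The order DLD1, SA, METS, SPH from highest to lowest held in 17 of 22 regions and in 5.08% of all regions. This order does not follow the labelled cell character: both mesenchymal lines lay below both epithelial lines at 5 of 22 regions, against 20.1% of all.

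**Figure D1:**
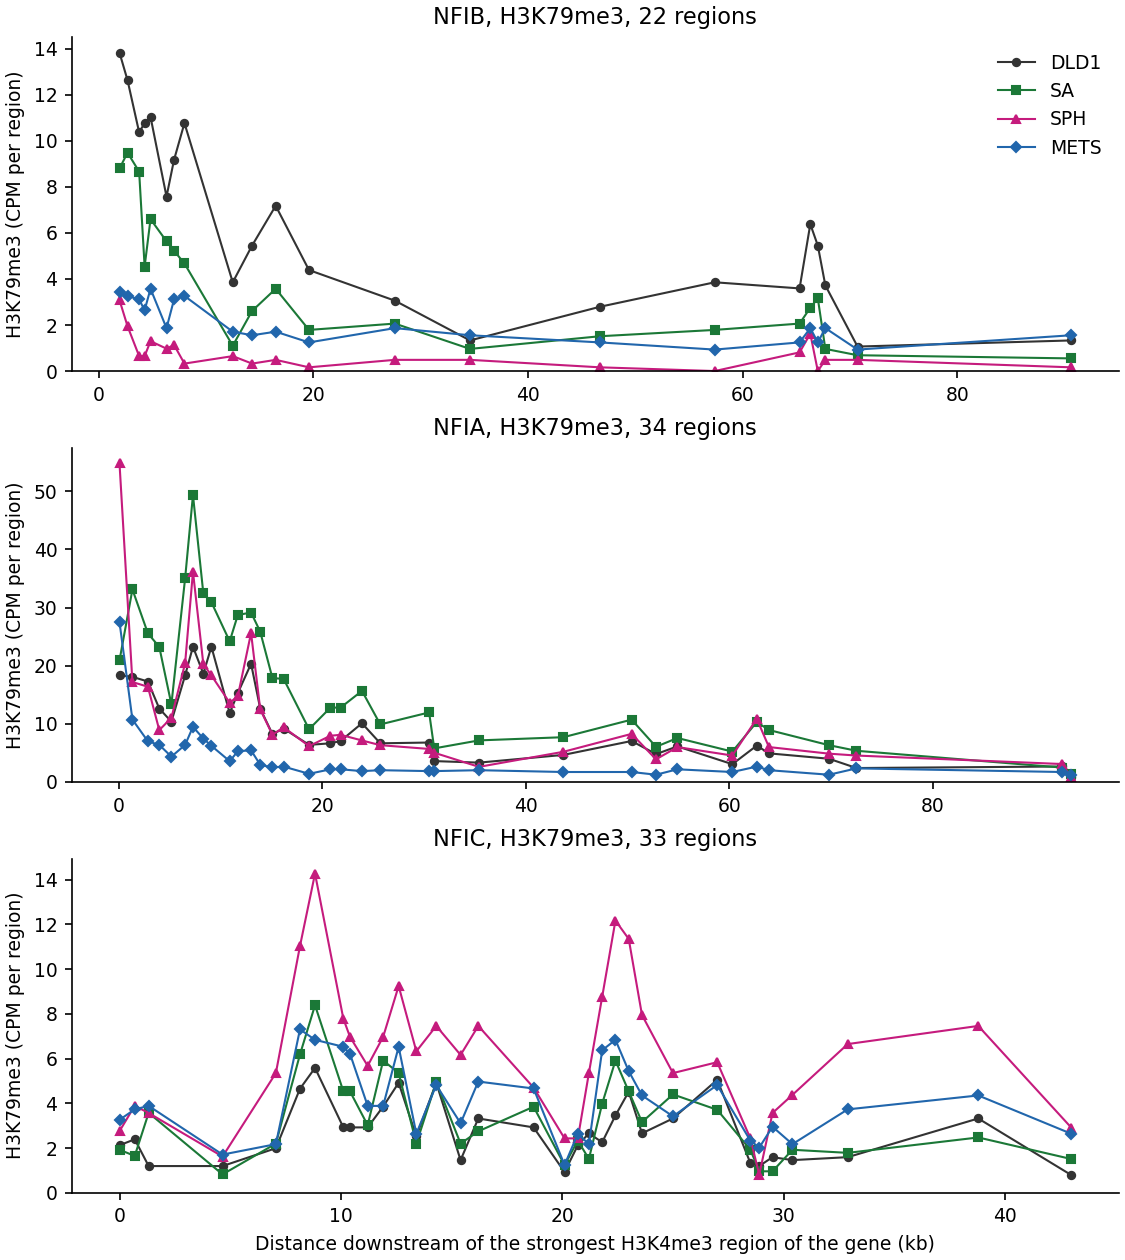
H3K79me3 in CPM per region (vertical axis) at the 22 regions of NFIB, the 34 of NFIA and the 33 of NFIC, against distance in kb downstream of the middle of each gene's strongest H3K4me3 region; symbols and colours stand for the 4 lines, 1 library each. In NFIB the SPH line stays at or below 3.08 CPM at every region, in NFIA SPH is highest at 3 of 34 regions and reaches 54.8 CPM at the most upstream one, METS is below DLD1 at 32 of 34, and in NFIC SPH is highest at 28 of 33.

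All 22 regions of NFIB lay between 14224408 and 14313420, downstream of the strongest H3K4me3 region of the gene at chr9:14314946-14315392. The region nearest to it, chr9:14313011-14313420, had 104 counts in DLD1 against 64 for SA, 19 for SPH and 22 for METS, which is 13.8, 8.80, 3.08 and 3.42 CPM. It held the highest H3K79me3 of the gene in DLD1, SPH was 4.49-fold (2.73 to 7.75) and METS 4.04-fold (2.53 to 6.73) lower there, and these lines nearly coincided. Further along, at chr9:14310789-14310979, DLD1 had 81 counts against 33 for SA, 4 for SPH and 17 for METS, with SPH 16.6-fold lower (6.24 to 62.4). At chr9:14311254-14311533 they were 78, 63, 4 and 20 in the same order, with SPH 15.98-fold lower (5.999 to 60.1). At both regions SPH was near absence, while METS kept 2.64 and 3.11 CPM. The region chr9:14257536-14257935, 57.4 kb downstream, had 29 counts in DLD1 against 13 for SA, 0 for SPH and 6 for METS. Against a floor of 3 counts, SPH was at least 7.92-fold lower there, with an exact limit of 6.04-fold. A further region, chr9:14248011-14248348, also had 0 counts in SPH.

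The ratio of SPH to DLD1 varied between single regions. The lowest was at chr9:14306922-14307422, where 81 counts in DLD1 stood against 2 in SPH, 33.2-fold lower (8.90 to 278.8). It was picked as the lowest of 22 regions and rests on 2 counts in SPH. Nothing is therefore read from its distance to the 4.49-fold difference nearest to the start. Grouped by distance from the strongest H3K4me3 region, SPH was 7.69-fold lower (5.69 to 10.6) at 1 to 5 kb, 11.3-fold (6.70 to 20.6) at 5 to 10 kb and 12.9-fold (6.82 to 27.4) at 10 to 20 kb. It was 6.32-fold lower (2.87 to 16.5) at 20 to 50 kb and 7.12-fold (4.57 to 11.6) at 50 to 150 kb. The intervals of these 5 pooled classes overlap. METS was 3.66-fold lower (2.95 to 4.58) at 1 to 5 kb, 3.34-fold at 5 to 10 kb and 3.36-fold at 10 to 20 kb, but 1.54-fold lower (0.968 to 2.49) at 20 to 50 kb and 2.64-fold (1.97 to 3.57) at 50 to 150 kb. Only 3 regions make up the class at 20 to 50 kb, with 54 counts in DLD1 and 30 in METS. The 2 regions of NFIB where METS was not below DLD1, chr9:14224408-14224803 and chr9:14280396-14280803, had 10 counts in each of the 2 lines. SA was 1.54-fold lower at 1 to 5 kb and 2.30-fold (1.72 to 3.12) at 10 to 20 kb. The largest folds of SA below DLD1 rest on few counts. They were at chr9:14247279-14247592, with 28 counts in DLD1 and 7 in SA, 3.87-fold lower (1.65 to 10.49), and at chr9:14302535-14302892, with 29 and 8 counts, 3.51-fold lower (1.56 to 8.88). With more counts, 81 in DLD1 and 33 in SA, chr9:14310789-14310979 was 2.37-fold lower in SA (1.57 to 3.67).

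H3K4me3, the promoter mark, was also lower over NFIB in SPH, but not at every promoter region. The 9 regions summed to 205 CPM in DLD1, 166 CPM in SA, 103 CPM in SPH and 157 CPM in METS. SPH was 1.98-fold lower (1.81 to 2.17), METS 1.30-fold (1.21 to 1.41) and SA 1.24-fold (1.14 to 1.33). SA and METS were not told apart, at 1.06-fold (0.975 to 1.15). At least 2-fold lower were 5 of 9 regions in SPH, 1 in SA and 1 in METS, where 3.34%, 2.10% and 1.09% of all 36400 H3K4me3 regions were.

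Joined where they lay within 5 kb of each other, a grouping chosen after the values were seen, the 9 regions formed 4 places that behaved differently. The strongest, 4 regions from 14312926 to 14316074, had 118 CPM in DLD1, 100.1 CPM in SA, 42.1 CPM in SPH and 95.03 CPM in METS. SPH was 2.81-fold lower there (2.46 to 3.22), and SA and METS were 1.18-fold and 1.24-fold lower. Within it, the peak region chr9:14314946-14315392 went from 44.2 CPM in DLD1 to 19.0 CPM in SPH, 2.32-fold lower (1.89 to 2.87), with 32.9 CPM in SA and 33.0 CPM in METS. The region on its downstream edge, chr9:14312926-14313372, had 26.0, 19.4, 3.22 and 24.4 CPM in DLD1, SA, SPH and METS, 8.10-fold lower in SPH (5.23 to 13.1). H3K79me3 region chr9:14313011-14313420 overlaps this edge. In METS the edge kept H3K4me3 at 0.936 of DLD1 (0.756 to 1.16) while H3K79me3 there was 4.04-fold lower.

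About 7 kb further upstream, 2 regions from 14322202 to 14323116 showed no such loss in SPH. They summed to 54.2 CPM in DLD1, 46.3 CPM in SA, 53.8 CPM in SPH and 42.0 CPM in METS, and the ratio of SPH to DLD1 was 0.994 (0.859 to 1.15). At this place METS was the lowest line, 1.29-fold below DLD1 (1.10 to 1.504). The place farthest upstream, 2 regions from 14347631 to 14348946, had 28.1, 15.5, 2.94 and 16.4 CPM in the order DLD1, SA, SPH, METS. It was 9.58-fold lower in SPH (6.09 to 15.8), 1.82-fold in SA (1.44 to 2.30) and 1.71-fold in METS (1.35 to 2.17). Its outer region, chr9:14348498-14348946, had 106 counts in DLD1 against 50 for SA, 7 for SPH and 55 for METS and was 16.1-fold lower in SPH (7.55 to 41.1). It was also the region more than 2-fold lower in SA, at 2.45-fold (1.73 to 3.495), and in METS, at 2.09-fold (1.498 to 2.96). Inside the gene, the region chr9:14251540-14252003 had 28 counts in DLD1 against 30 for SA, 33 for SPH and 25 for METS, and its intervals against DLD1 included 1 in all derivatives.

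**Figure D2:**
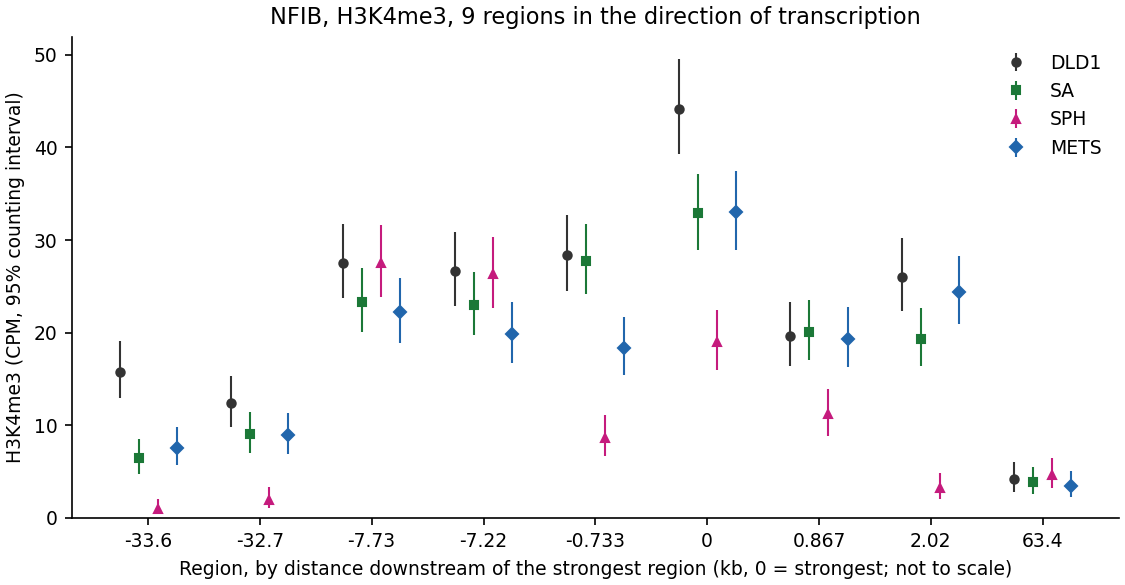
H3K4me3 in CPM (vertical axis) at the 9 NFIB regions in the direction of transcription, labelled by distance in kb from the strongest region and spaced evenly; points are the 4 lines, 1 library each, and bars are 95% counting intervals. SPH lies below the other lines at the 2 regions farthest upstream and at the 4 regions around the strongest, and level with DLD1 at the 2 regions between them, where it has 26.3 and 27.5 CPM. Where SPH is lower, its smallest fold below DLD1 is 1.76, at the region 0.867 kb downstream.

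H3K27me3, the Polycomb mark, was higher over NFIB in SPH. The interval that spans the gene had 152.8 CPM in DLD1, 169 CPM in SA, 318 CPM in SPH and 189.8 CPM in METS. SPH was 2.08-fold higher (1.98 to 2.18), METS 1.24-fold (1.18 to 1.31) and SA 1.11-fold (1.05 to 1.17). The order of the lines was SPH, METS, SA, DLD1, the reverse of that of H3K79me3. With counts scaled to library totals, each gap between neighbours exceeded counting error. METS and SA lay closer together with TMM factors, at 1.27 and 1.22 of DLD1, and no interval was computed for that gap. Of the 7600 H3K27me3 intervals of 50 kb or more, 0.895% were at least 2-fold higher in SPH, and NFIB ranked 60 from the highest. A shorter interval inside it, chr9:14317084-14357907, which holds both upstream H3K4me3 places, had 64.6, 73.5, 112.9 and 75.0 CPM in DLD1, SA, SPH and METS, 1.75-fold higher in SPH (1.62 to 1.88). It is part of the gene interval and no independent measure. The third interval, chr9:14204247-14205038, had 1 count in DLD1 against 4 for SA, 10 for SPH and 5 for METS. How the reads of an interval were spread along the gene is not given by these counts.

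For SPH and METS the regions held within 1 Mb of NFIB lay closer to DLD1 than the gene itself in all 3 marks. For SA the H3K27me3 flanks were raised as much as the gene. Whether these regions lie outside every transcript of NFIB was not checked, since no hg19 annotation was used. Within 1 Mb on either side, 15 H3K79me3 regions summed to 16.9 CPM in DLD1, 14.9 CPM in SA, 12 CPM in SPH and 20.2 CPM in METS, and the ratio of SPH to DLD1 was 0.711 (0.526 to 0.954). Of these, 13 lay on the higher-coordinate side, and the 2 on the lower-coordinate side had 0 counts in DLD1. All H3K4me3 regions of the flanks also lay on the higher-coordinate side, so for these 2 marks the lower-coordinate side was in effect not measured. The 5 H3K4me3 regions there had a ratio of 0.920 (0.834 to 1.02), and the 26 H3K27me3 intervals, some of which overlap, one of 1.11 (1.08 to 1.13). For METS the 3 ratios were 1.20, 0.974 and 1.04, and for SA 0.879, 0.9501 and 1.13 (1.10 to 1.15), the last beside 1.11 for the NFIB interval. Over the rest of chromosome 9 the ratio of SPH to DLD1 was 1.02 for H3K79me3, 0.981 for H3K4me3 and 0.919 for H3K27me3.

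Among the gene-sized intervals held, NFIB stood at the low end of H3K79me3, which is a description since this value chose it. The distinct H3K27me3 intervals were used as gene outlines, and 4201 of them held at least 10 H3K79me3 regions. They cover chromosomes 1 to 19 alone. Some overlap, so the same H3K79me3 region can count in several of them, and the ranks below hold for this set only. On the log2 scale with 0.5 CPM added, NFIB differed from DLD1 by -3.05 in SPH, -1.63 in METS and -0.81 in SA, where the median intervals were at -0.09, 0.04 and 0.02. It ranked 2 from the lowest in SPH, 4 in METS and 22 in SA. The interval below it in SPH, chr4:331603-378653, had 26.5 CPM in DLD1, 11.1 CPM in SA, 0.973 CPM in SPH and 42.6 CPM in METS, so its METS level lay above DLD1, unlike that of NFIB. At least 2-fold lower were 0.928% of the intervals in SPH, 0.738% in METS and 0.262% in SA.

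The intervals most like NFIB over the 4 lines still differed from it, above all in SPH. Likeness was the Euclidean distance between the 3 log2 differences from DLD1. The nearest interval, chr14:51098776-51135049, had 158 CPM in DLD1, 124 CPM in SA, 72.0 CPM in SPH and 69.2 CPM in METS, at a distance of 2.03. Its SPH value was -1.13 on the log2 scale, against -3.05 for NFIB. The next were chr2:99235569-99347589 at 2.07, chr2:110841447-110874143 at 2.08, chr3:145787227-145881440 at 2.12 and chr3:111451344-111695364 at 2.24. These are given by position because no table of the same build pairs them with genes. With at least 20 regions required, 2 of these 5 intervals were again among the nearest 5, and NFIB was lowest of 2219 intervals in SPH.

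**Figure D3:**
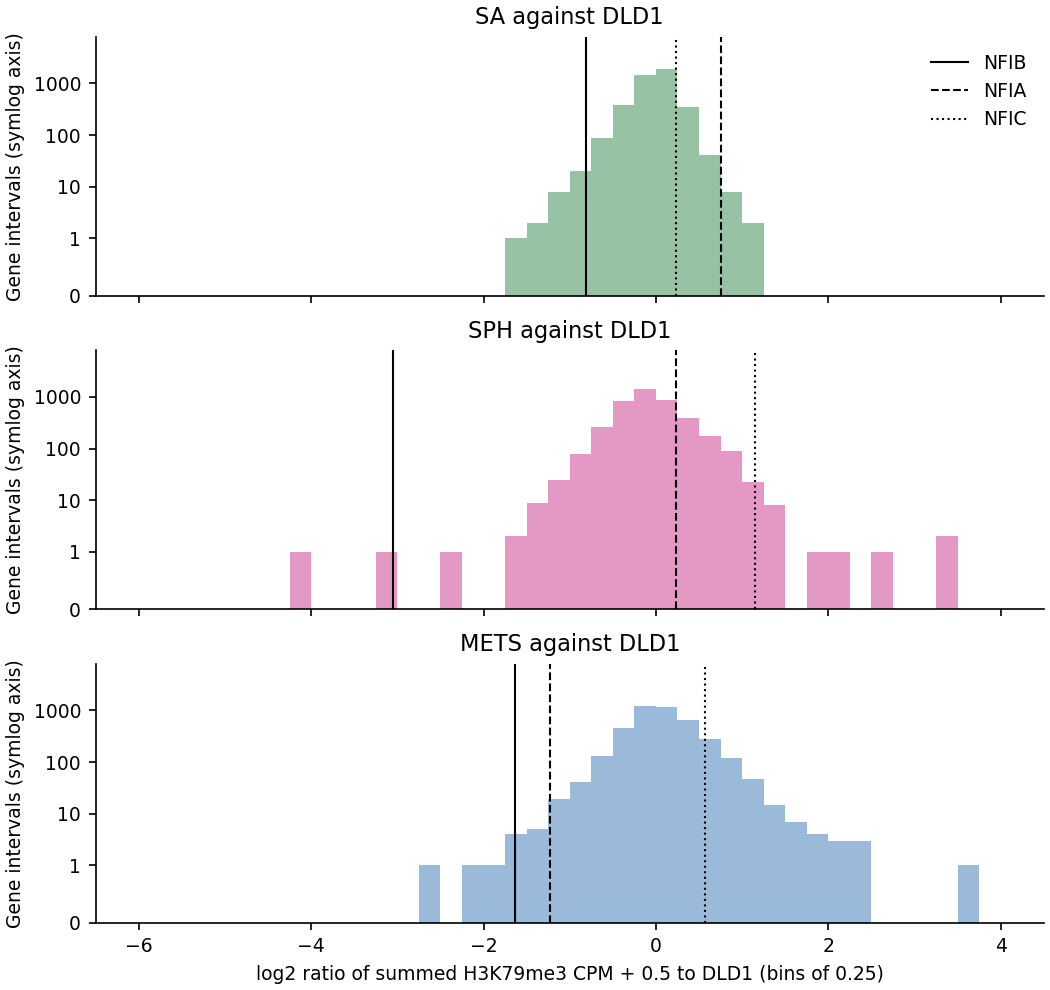
Number of gene intervals (vertical axis, linear below 1 and logarithmic above) by log2 ratio of summed H3K79me3 CPM plus 0.5 to DLD1 (horizontal axis, bins of 0.25), for 4201 intervals with at least 10 regions, in SA, SPH and METS; vertical lines mark NFIB, NFIA and NFIC. NFIB is at -3.05 in SPH with 1 interval below it, NFIA is at -1.23 in METS and 0.75 in SA, and NFIC is at 1.15 in SPH.

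NFIA lies on chromosome 1 from 61542946 to 61928460 (hg19, plus strand, 385.5 kb), and its H3K79me3 differed from that of NFIB in SA and SPH but was likewise low in METS. The sum over 34 regions was 335 CPM in DLD1, 565 CPM in SA, 395 CPM in SPH and 143 CPM in METS. SA was 1.69-fold higher (1.60 to 1.77), SPH 1.18-fold higher (1.11 to 1.25) and METS 2.34-fold lower (2.17 to 2.53). METS was thus well below all other lines, and SA well above. At least 2-fold lower in METS were 25 of 34 regions, where 2.06% of all regions were, and at least 2-fold higher in SA were 6, where 1.08% were. With 1 CPM added the count in SA was 2. SA was above DLD1 at 33 of 34 regions and below it at 1, where 50.9% of all regions were below. METS was below DLD1 at 32 of 34, where 43.1% of all regions were. Both mesenchymal lines lay above both epithelial lines at 17 of 34 regions, against 8.62% of all regions. NFIA ranked 14 from the lowest in METS and 10 from the highest in SA among the 4201 intervals.

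The most upstream H3K79me3 region of NFIA was higher in METS than in DLD1, unlike 32 of the 34 regions, and was the one where SPH exceeded DLD1 the most. It is chr1:61548929-61549403, which overlaps the strongest H3K4me3 region of the gene, and had 18.4 CPM in DLD1, 20.9 CPM in SA, 54.8 CPM in SPH and 27.5 CPM in METS. SPH was 2.99-fold higher (2.44 to 3.67) and METS 1.5-fold higher (1.19 to 1.89). It was the only region of NFIA at least 2-fold higher in SPH, where 3.03% of all regions were. From 1 to 5 kb downstream, METS was 1.99-fold lower (1.65 to 2.42), from 5 to 10 kb 2.77-fold (2.38 to 3.24) and from 10 to 20 kb 3.53-fold (2.95 to 4.24). From 20 to 50 kb it was 3.11-fold lower (2.49 to 3.91) and from 50 to 150 kb 2.34-fold (1.88 to 2.92). SPH over these classes stayed between 0.885 and 1.26 of DLD1. SA was between 1.53-fold and 1.82-fold higher in each of them.

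Single regions of NFIA showed the same separation of lines. At chr1:61556186-61556592 there were 175 counts in DLD1 against 359 for SA, 223 for SPH and 61 for METS, 2.12-fold higher in SA (1.77 to 2.56). The lowest ratio for METS was at chr1:61572836-61573227, with 76 counts in DLD1 against 114 for SA, 44 for SPH and 12 for METS, 5.42-fold lower (2.93 to 10.9). This region was also among the 5 lowest for SPH, at 7.14 CPM against 10.1 CPM in DLD1. The flanks within 1 Mb of NFIA held 72 H3K79me3 regions, whose sum in SA was 1.24-fold that of DLD1 (1.18 to 1.31), in SPH 0.956 and in METS 1.08. The part of the flanks in the SA value of NFIA was not tested.

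H3K4me3 and H3K27me3 over NFIA moved differently from H3K79me3. The 10 H3K4me3 regions summed to 158 CPM in DLD1, 176 CPM in SA, 209 CPM in SPH and 154 CPM in METS. SPH was 1.32-fold higher (1.22 to 1.43) and SA 1.11-fold (1.02 to 1.20), while METS was at 0.974 of DLD1 (0.895 to 1.06), so the loss of H3K79me3 in METS had no counterpart of its size in H3K4me3. SPH was highest at 9 of 10 regions, against 37.5% of all H3K4me3 regions. The exception was the strongest region, chr1:61548871-61549321, with 56.1 CPM in DLD1, 61.4 CPM in SA, 48.7 CPM in SPH and 61.5 CPM in METS. At least 2-fold higher in SPH were 2 of 10 regions, chr1:61545118-61545558 at 2.18-fold (1.30 to 3.77) and chr1:61804196-61804635 at 2.27-fold (1.26 to 4.26), where 3.58% of all regions were. Both were weak, with 3.27 and 2.53 CPM in DLD1. The count was 1 with TMM factors or DESeq2 size factors and 0 with 1 CPM added. The H3K27me3 interval nearest to the gene ends, chr1:61330931-61928465, begins upstream of the gene given here. It had 344 CPM in DLD1, 218 CPM in SA, 236 CPM in SPH and 281 CPM in METS, 1.58-fold lower in SA (1.52 to 1.65), 1.46-fold in SPH (1.40 to 1.52) and 1.22-fold in METS (1.18 to 1.27). The flanks of NFIA, 23 intervals, were also lower than in DLD1, at 0.828 in SA, 0.698 in SPH and 0.767 in METS. The other 3 intervals in the window were short, with at most 2.24 CPM, and had 4, 6 and 35 counts in DLD1. They were lower in every derivative. Their ratio intervals against DLD1 included 1, except in METS at chr1:61590405-61590874, with 6 counts in DLD1 and 0 in METS.

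NFIC lies on chromosome 19 from 3359561 to 3469215 (hg19, plus strand, 109.7 kb), and its H3K79me3 was highest in SPH. The 33 regions summed to 90.1 CPM in DLD1, 106 CPM in SA, 201 CPM in SPH and 134 CPM in METS. SPH was 2.23-fold higher (2.03 to 2.45), METS 1.48-fold (1.34 to 1.64) and SA 1.18-fold (1.06 to 1.31). At least 2-fold higher were 18 of 33 regions in SPH, 5 in METS and 1 in SA, where 3.03%, 7.14% and 1.08% of all regions were. SPH was highest of the 4 lines at 28 of 33 regions, against 16.7% of all. Much of chromosome 19 was higher as well: the 336 H3K79me3 regions within 1 Mb of NFIC had a ratio of SPH to DLD1 of 1.59 (1.56 to 1.62), and the rest of the chromosome one of 1.25. For METS these ratios were 1.46 and 1.16. With counts scaled to the rest of chromosome 19, an alternative chosen after the values were seen, NFIC was 1.78-fold higher in SPH and 1.28-fold in METS. The part of the chromosome in the NFIC values was not tested.

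Within NFIC the differences were spread over the stretch from 1.30 to 43.0 kb behind the start. The highest region in SPH, chr19:3368428-3368831, had 42 counts in DLD1 against 61 for SA, 88 for SPH and 44 for METS, 2.56-fold higher in SPH (1.75 to 3.79). A further one, chr19:3382072-3382379, had 26, 43, 75 and 44 counts in the same order, 3.52-fold higher in SPH (2.23 to 5.73). Among regions with 20 or more counts in both lines together, the largest log2 difference in SPH, with 0.5 CPM added, was at chr19:3392499-3392890, with 12 counts in DLD1 against 13 for SA, 41 for SPH and 24 for METS, 4.17-fold higher (2.15 to 8.71). Without the added value chr19:3375076-3375412, with 11 counts in DLD1 and 38 in SPH, stood slightly higher at 4.22-fold. At the start of the gene, 2 regions together had 34 counts in DLD1 against 26 for SA, 41 for SPH and 45 for METS, and no interval against DLD1 excluded 1.

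H3K4me3 over NFIC did not follow its H3K79me3. The 7 regions summed to 193 CPM in DLD1, 194 CPM in SA, 166 CPM in SPH and 212 CPM in METS, with SPH 1.16-fold lower (1.08 to 1.26) and METS 1.10-fold higher (1.02 to 1.18). DLD1 and SA were not told apart, at 1.003-fold (0.931 to 1.08). None of the 7 regions was 2-fold higher or lower in any derivative, where 0.527%, 3.58% and 3.91% of all regions were 2-fold higher in SA, SPH and METS and 2.10%, 3.34% and 1.09% were 2-fold lower. Most of the lower sum in SPH lay at the edges of the start: chr19:3358891-3359249 went from 30.4 CPM in DLD1 to 15.9 CPM in SPH, and chr19:3360254-3360685 from 40.5 to 26.1 CPM. A region 75.2 kb downstream, chr19:3434735-3435203, was also lower in SPH, at 15.1 CPM against 20.7 CPM in DLD1, a ratio of 0.730 (0.563 to 0.946). The strongest region, between the edges, chr19:3359615-3359998, stayed at 48.4 CPM in DLD1 against 48.8 CPM in SPH. The median of the single ratios was accordingly 1.01, which turns the direction of the summed difference. H3K27me3 over NFIC was low, with 24.7 CPM in DLD1, 21.5 CPM in SA, 18.8 CPM in SPH and 22.0 CPM in METS, and SPH was 1.32-fold lower (1.14 to 1.52). For SA and METS the intervals included 1. The flanks of NFIC had an H3K27me3 ratio of SPH to DLD1 of 0.816.

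NFIX lies on chromosome 19 from 13106422 to 13209610 (hg19, plus strand, 103.2 kb) and carried little H3K79me3 in any line. Its 2 regions together had 6 counts in DLD1 against 7 for SA, 10 for SPH and 21 for METS, 4.09-fold higher in METS (1.60 to 12.4). At this depth SA and SPH could not be told apart from DLD1, and NFIX was not ranked among the intervals because it had fewer than 10 regions. Its 7 H3K4me3 regions summed to 92.7 CPM in DLD1, 101 CPM in SA, 90.03 CPM in SPH and 91.3 CPM in METS, and every interval against DLD1 included 1. Below that sum, 1 of 7 regions was at least 2-fold higher in SPH, where 3.58% of all regions were. At least 2-fold lower in METS was 1 of 7, where 1.09% of all were, and 0 with 1 CPM added. These 2 neighbouring regions were weak. The region chr19:13136925-13137385 had 3.87 CPM in DLD1, 5.29 CPM in SA, 10.9 CPM in SPH and 5.48 CPM in METS, 2.82-fold higher in SPH (1.79 to 4.58). The region chr19:13135206-13135625 had 9.97, 10.96, 10.3 and 4.52 CPM in the same order, 2.21-fold lower in METS (1.43 to 3.46). The strongest region, chr19:13106754-13107188 at the start of the gene, had 37.2 CPM in DLD1, 41.5 CPM in SA, 31.0 CPM in SPH and 41.2 CPM in METS.

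H3K27me3 over NFIX was lower in every derivative. The gene interval had 89.97 CPM in DLD1, 49.2 CPM in SA, 53.4 CPM in SPH and 60.04 CPM in METS. SA was 1.83-fold lower (1.68 to 1.99), SPH 1.69-fold (1.56 to 1.83) and METS 1.498-fold (1.39 to 1.62), so all derivatives lay apart from DLD1, and SA and SPH were not told apart from each other at 1.09-fold (0.993 to 1.19). The flanks of NFIX, 126 intervals, stayed within 1.004 to 1.04 of DLD1. Among the 7600 intervals of 50 kb or more, NFIX ranked 74 from the lowest in SA, 277 in SPH and 316 in METS. The other 3 intervals in the window of NFIX were short and had at most 2.07 CPM in any line. No gene interval of the family was 2-fold lower in any derivative, and 0.408%, 1.21% and 0.934% of these intervals were in SA, SPH and METS.

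Side by side, the members differed in which mark set the lines apart. Per kb of H3K79me3 region, DLD1 had 17.4 CPM in NFIB, 25.0 CPM in NFIA, 7.82 CPM in NFIC and 0.979 CPM in NFIX. In SPH these levels were 2.04, 29.4, 17.5 and 1.99 CPM per kb. On this scale NFIB went from the second highest member of the family to a level near that of NFIX. The NFIX level in SPH rests on 10 counts in 2 regions, 0.815 kb in all. As sums the 2 genes were not alike in SPH, with 16.4 CPM over 22 regions for NFIB against 1.62 CPM for NFIX. In METS they were 5.57, 10.7, 11.6 and 4.01 CPM per kb, and in SA 9.85, 42.1, 9.23 and 1.18 CPM per kb. H3K4me3 per kb of region stayed within narrower bounds, from 27.8 CPM for NFIB in SPH to 78.9 CPM for NFIC in METS. Per kb of H3K27me3 interval, NFIB had 0.482 CPM in DLD1 against 1.002 CPM in SPH, while NFIX had 0.872 and 0.517 CPM. NFIB was therefore the member with the most H3K27me3 per kb in SPH, and NFIX in DLD1.

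**Figure D4:**
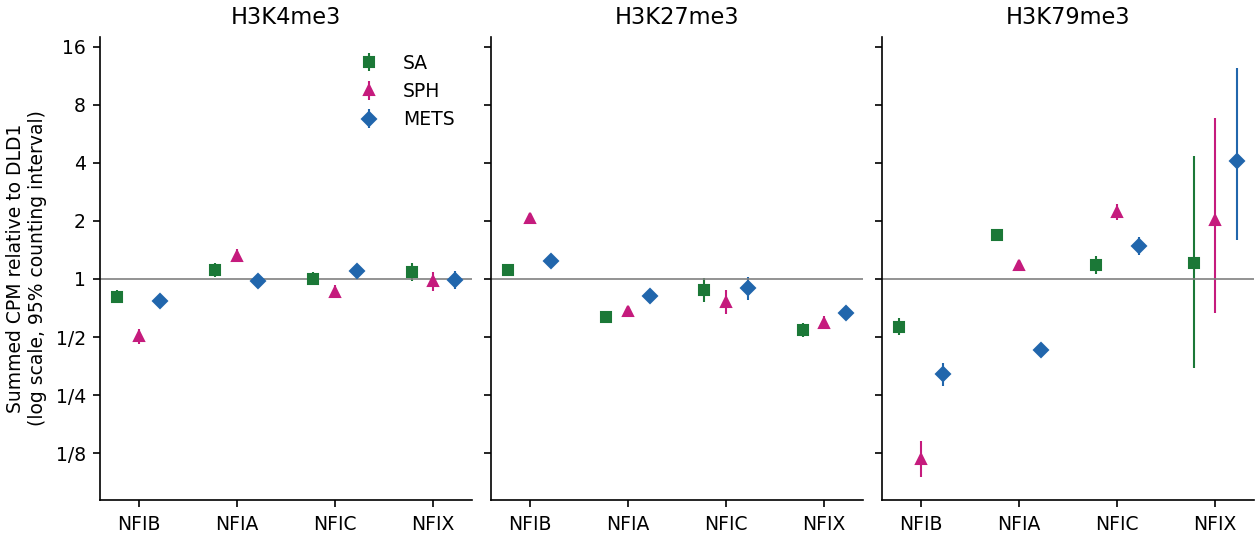
Summed CPM of each derivative relative to DLD1 (vertical axis, log scale) for the 4 NFI genes (horizontal axis) and the 3 marks; points are single libraries and bars are 95% counting intervals, and H3K27me3 is that of the interval nearest to the gene ends. NFIB in SPH is the farthest below 1 for H3K79me3, at 0.117, and above 1 for H3K27me3, at 2.08, and NFIX for H3K79me3 has wide bars because it rests on 6 to 21 counts.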

How the data were processed

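Chromatin immunoprecipitation and sequencing of 3 marks in 4 lines gave 12 tables. The deposited values are raw counts of reads per region, as judged from the values themselves: whole numbers with differing totals. The build was hg19 per the submitters' processing notes. Aligner, peak or region caller, read counter and input control are not given in the sources used here. The H3K27me3 table was held in part: its last line states that 7773 entries were skipped, and it covers chromosomes 1 to 19, so its CPM refer to this part alone.

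Counts were scaled to library totals with Python 3.11.15 and pandas 2.3.3. Ratios to DLD1 carry exact 95% Clopper-Pearson intervals (SciPy 1.17.1), conditional on the summed counts. With 1 library per line and mark no test was made. Regions counted as 2-fold changed on log2(CPM + 0.5), beside the same share over all regions. H3K27me3 intervals overlap, so the interval nearest to the gene ends was used and not a sum. The ratio intervals and the 2-fold call were tested on simulated counts of SPH and DLD1, drawn with counting error alone. The other steps were not tested in this way.

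Named were the 4 members, their strongest and 2-fold changed H3K4me3 regions, at most 5 H3K79me3 regions each way per derivative among those with 20 or more counts in both lines together, of which some are given here, and the 5 intervals most like NFIB. Members, lists and comparisons were chosen with earlier results of these data known, and the H3K4me3 places, distance classes and own-chromosome scaling after the values were seen. Alternatives were TMM factors (edgeR 4.0.16 in R 4.3.3), DESeq2 1.42.0 size factors, other added values and thresholds, a filter at a mean of 10 counts, gene ends without the 2 kb, medians of ratios and leaving out the strongest region. Marker genes and a list of NFI-related genes were not used here, since no hg19 annotation was used. Promoter sequences are from RefSeq, GRCh38.p14.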

Additional observations from a re-analysis of the deposited data

How the results depend on the processing

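No paired analysis was possible because each line and mark has 1 library. For NFIB, 44 of 51 alternative window sums and 89 of 96 alternative region counts stayed within counting error or within 1.5 times, and none turned direction. These counts include those of regions at least 2-fold higher, which were 0 under every setting. Leaving out the 2 kb changed no sum or count of NFIB. Such entries were bound to stay the same, so the tally is no measure of stability. The H3K79me3 ratio of NFIB to DLD1 lay between 0.106 and 0.128 in SPH, 0.30 and 0.329 in METS and 0.556 and 0.582 in SA. The H3K4me3 ratio in SPH was 0.430 as the median of region ratios. The H3K27me3 ratio in SPH was 2.26 with TMM factors, DESeq2 size factors and own-chromosome scaling, and in SA 1.22 under the same 3. In METS it was 1.27, 1.28 and 1.30, so with TMM factors and DESeq2 size factors METS and SA lay closer together. The count of NFIB H3K79me3 regions lower in SA was 16 at 1.5-fold and 0 at 3-fold, and in METS 8 at 3-fold. The count of H3K4me3 regions was 0 in SA at 3-fold, and in METS 0 with 1 CPM added, 2 at 1.5-fold and 0 at 3-fold. Of the other members, 131 of 150 window sums kept, 18 moved and 1 turned: the NFIC H3K4me3 ratio in SPH, 0.86 as a sum, was 1.01 as a median of region ratios, since the loss lay in part of its regions. Ratios of the flanks moved more often, in 6 of 18 alternatives for NFIB and 34 of 54 for the other members; with TMM factors the flanks crossed 1 for NFIA H3K79me3 in SPH, from 0.956 to 1.03, for NFIA H3K4me3 in SPH, from 1.009 to 0.988, and for NFIC H3K27me3 in SA, from 0.980 to 1.08. TMM factors shifted all log2 ratios by 0.11 for H3K79me3 in SPH, 0.14 for H3K27me3 in SA and 0.12 in SPH. NFIX H3K79me3 had no region left at a mean of 10 counts. Depth limits single H3K79me3 regions, most of which had under 10 counts in SPH at NFIB.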
